A study of Mus musculus with 4 samples.

Results

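Dscam, Dscaml1, Sdk1 and Sdk2 are the genes of the DSCAM and sidekick families of cell-surface adhesion proteins. They were taken by symbol from the count matrix, in which they are 4 of 31053 genes, and are described here over the classes, subtypes and stages that the authors assigned to each nucleus. The tissue was the superior colliculus, the layered midbrain area that receives retinal input, of C57BL/6J mice with no gene or treatment varied. RNA of single nuclei was profiled with 10x Genomics 3′ v3 chemistry just before birth (embryonic day 19, E19) and at 3 ages after it (days 4, 8 and 21: P4, P8, P21). Each stage was 1 library of tissue pooled from several mice, so no stage had a replicate and age could not be told apart from library. No difference was tested, between stages for that reason and between classes because the authors named them from the same expression data. Intervals are 95% intervals that cover counting error only, and no p-value is given.

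DSCAM, DSCAML1, SDK1 and SDK2 are single-pass membrane proteins of the immunoglobulin superfamily, built from immunoglobulin and fibronectin type III domains, and each binds mainly to copies of itself on another membrane. In the mouse retina DSCAM and DSCAML1 keep the processes and cell bodies of like neurons from clumping. The sidekicks mark sublayers of the retina's inner synaptic layer, and their cytoplasmic ends bind the MAGI scaffold proteins at synapses. DSCAM has also been described as a receptor for netrins, beside DCC.

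In GENCODE M21 (GRCm38, mm10), Dscam (ENSMUSG00000050272) covers chr16:96590840-97170752 on the minus strand, a gene body of 579.9 kb. Dscaml1 (ENSMUSG00000032087) covers chr9:45426628-45753712 on the plus strand, 327.1 kb. Sdk1 (ENSMUSG00000039683) covers chr5:141241490-142215586 on the plus strand, 974.1 kb, and Sdk2 (ENSMUSG00000041592) covers chr11:113776374-114067046 on the minus strand, 290.7 kb. The reads were counted against a pre-mRNA reference, so intronic reads entered the totals and levels are compared between genes only per 100 kb of gene body. The genes annotated inside them, 3 for Dscam, 2 for Dscaml1, 7 for Sdk1 and 0 for Sdk2, all lie on the opposite strand. Of those in the matrix, the largest total was 50 unique molecular identifiers (UMIs) within Dscaml1 and 130 within Sdk1.

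Sequence upstream of the start was held for 3 of the members in RefSeq's promoter table (GRCm38.p6), and Dscaml1 was not matched. The 200 bases that end 50 bases before the RefSeq start are shown because the sidekick pair and Dscam differ in them. They lie at chr5:141241284-141241483 on the plus strand for Sdk1, chr11:114067080-114067279 on the minus strand for Sdk2 and chr16:97170786-97170985 on the minus strand for Dscam, and each is printed 5′ to 3′ on its gene's strand. Capitals mark the GC box, GGGCGG on this strand or CCGCCC for the other.
Sdk1: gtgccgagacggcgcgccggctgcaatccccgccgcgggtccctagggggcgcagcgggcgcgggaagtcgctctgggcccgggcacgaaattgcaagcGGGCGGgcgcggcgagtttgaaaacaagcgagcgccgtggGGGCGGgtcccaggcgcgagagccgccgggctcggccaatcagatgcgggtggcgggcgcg
Sdk2: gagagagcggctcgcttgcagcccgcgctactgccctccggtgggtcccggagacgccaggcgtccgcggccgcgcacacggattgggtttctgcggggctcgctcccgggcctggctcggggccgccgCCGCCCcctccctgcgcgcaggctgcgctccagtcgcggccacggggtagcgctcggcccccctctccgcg
Dscam: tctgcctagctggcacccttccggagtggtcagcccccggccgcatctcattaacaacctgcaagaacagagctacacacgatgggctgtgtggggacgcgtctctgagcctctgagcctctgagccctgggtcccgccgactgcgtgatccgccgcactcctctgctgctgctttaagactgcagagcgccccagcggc
The Sdk1 window held 2 GC boxes, the Sdk2 window 1 and the Dscam window 0, where 24.6% of 32851 promoter windows of this length held at least 1. CG dinucleotides numbered 33 for Sdk1, 30 for Sdk2 and 13 for Dscam, against a median of 4 over all windows. The sidekick windows had more of them than 98.9% and 97.9% of windows and the Dscam window more than 77.9%. These are descriptions of the letters in a window, not of sites in use.

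The libraries held 2585, 2386, 2504 and 2249 nuclei from E19 to P21 with median depths of 6828 to 11745 UMIs, and 9 barcodes occurred in more than 1 library. Depth per nucleus was greater in later libraries, from 8052 to 19601 UMIs at the median in excitatory neurons and from 6075 to 14009.5 in inhibitory neurons. Levels are therefore given as CPM, the UMIs of a gene over all UMIs of the group times 1000000, and shares of nuclei with a UMI are also given after each nucleus was thinned to 2300 UMIs, which kept all 9724 nuclei. The authors named 9 classes and 35 subtypes from the same expression data, with the 4 genes among those measured, so levels by class and subtype are descriptions. The neuron class labels were checked against the 3 vesicular glutamate transporter genes, whose summed level was 179 to 289 CPM in excitatory and 12.7 to 49.3 CPM in inhibitory neurons. In the class labelled epithelial the summed level of Ttr, Folr1, Kl, Foxj1 and Ccdc153 was 0 to 111 CPM, with 0 to 2 of the 5 genes detected in a library, so it is called by its label only.

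Over all nuclei Dscam was the most counted of the 4 genes, with 147212 UMIs and at least 1 UMI in 87.2% of nuclei. Sdk1 gave 51685 UMIs in 66.5% of nuclei, Dscaml1 48508 in 57.9% and Sdk2 10653 in 38.0%. Per 100 kb of gene body, excitatory neurons at E19 held 219 CPM of Dscaml1 and 211 of Dscam, against 60.6 of Sdk1 and 47.0 of Sdk2. In inhibitory neurons at E19 the same scale gave 467 CPM for Dscam, 73.3 for Dscaml1, 69.8 for Sdk1 and 45.1 for Sdk2. The DSCAM genes thus stood above the sidekicks in excitatory neurons, and Dscam alone stood far above the rest in inhibitory neurons. By rank alone, the DSCAM genes shared their highest class in 3 libraries and the sidekicks at E19. Among classes of at least 20 nuclei it was for Dscam the oligodendrocyte lineage at E19, P4 and P8 and inhibitory neurons at P21, for Dscaml1 the oligodendrocyte lineage in all 4 libraries, and for Sdk1 the vascular leptomeningeal cells, the fibroblast-like cells of the brain's coverings, in all 4. For Sdk2 the highest class was the leptomeningeal cells at E19, excitatory neurons at P4 and P8 and astrocytes at P21. Some of these ranks were close. At E19 Dscam was 2743 CPM in the oligodendrocyte lineage and 2708 in inhibitory neurons. Sdk2 was then 141 CPM from 31 UMIs in leptomeningeal cells and 137 in excitatory neurons. At P4 and P8 Sdk2 did not differ between the neuron classes beyond counting error. The 10 dividing nuclei at P21 held more Dscam and Dscaml1 than any larger class of that library, at 3428 and 1781 CPM.

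**Figure D1:**
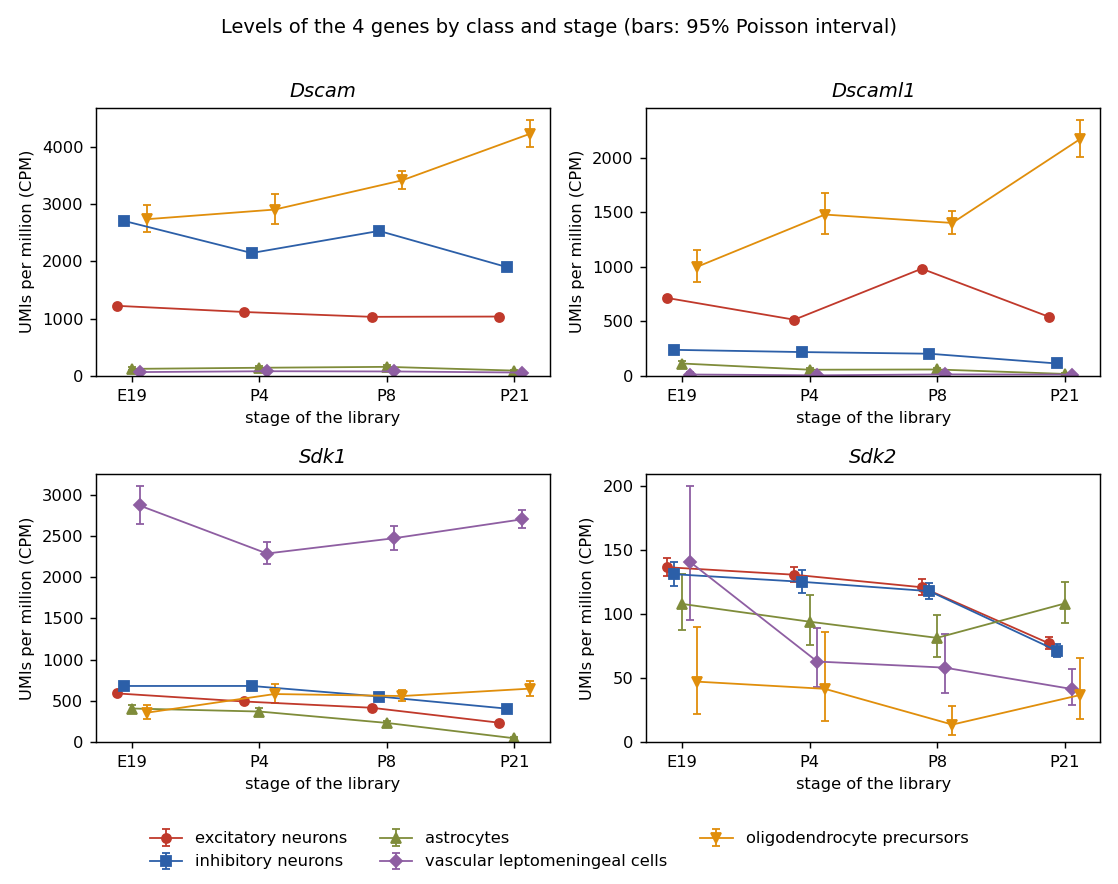
Levels of the 4 genes in 4 classes and in oligodendrocyte precursors (CPM, y axis; stage of the library, x axis), with bars for the 95% Poisson interval of the count. Inhibitory neurons lie above excitatory neurons for Dscam and below them for Dscaml1 in every library, leptomeningeal cells lie at 2286 to 2869 CPM for Sdk1, and the neuron classes overlap for Sdk2.

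Dscam was higher in inhibitory than in excitatory neurons in all 4 libraries. In excitatory neurons its level was 1226, 1118, 1033 and 1038 CPM from E19 to P21. Inhibitory neurons held 2708, 2148, 2534 and 1903 CPM of it in the same order. The lowest inhibitory value thus lay above the highest excitatory one. The inhibitory level was 2.21-fold the excitatory one at E19 (interval 2.16 to 2.26) and 1.92-fold at P4 (1.88 to 1.97). In the later libraries it was 2.45-fold (2.40 to 2.50) and then 1.83-fold (1.80 to 1.87). With 5 CPM added to both levels, the scale used for all calls below, it passed 2-fold at E19 and P8, where 0.818% and 1.66% of genes did so on the inhibitory side, and missed it at P4 and P21, where 0.795% and 1.37% did. Of genes with a body of at least 200 kb, as all 4 members have, 2.46%, 2.42%, 5.22% and 4.42% passed it on that side from E19 to P21. In all 4 libraries together 0.548% of genes passed it on that side, and none of the members. With subtypes weighted alike Dscam did so, at log2 ratios of 1.98, 1.46, 1.39 and 1.06 from E19 to P21, against 1.14, 0.94, 1.29 and 0.87 here. A direction kept in all 4 libraries is less unusual: 32.6% of genes were higher in inhibitory neurons in every library. After thinning, 96.9 to 98.5% of inhibitory and 76.4 to 84.1% of excitatory nuclei still had a Dscam UMI. The share was 11.1 to 17.3% in leptomeningeal cells, with median depths of 5610 to 6539 UMIs before thinning and unthinned shares of 30.9 to 44.3%. Astrocytes, at median depths of 4329 to 5525 UMIs, had thinned shares of 19.2 to 29.2%, and microglia, at 2984 to 3326 UMIs where they had at least 20 nuclei, 30.4 to 39.4%.

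By level, the separation held for every subtype, but at E19 and P4 not beyond counting error. Among inhibitory subtypes with at least 20 nuclei, the lowest Dscam levels were 1799, 1607, 1894 and 1558 CPM from E19 to P21 and the highest 4212, 3663, 2943 and 2294 CPM. Among excitatory subtypes the lowest were 136, 300.1, 122 and 237 CPM and the highest 1673, 1483, 1620.2 and 1374 CPM. In each library the lowest of the 12 inhibitory subtypes lay above the highest of the 13 (E19, P4) or 11 (P8, P21) excitatory ones. Such a gap was found for 0.0949%, 0.126%, 0.252% and 0.22% of genes from E19 to P21. In all 4 libraries together it was found for 9 of 11432 genes (0.0787%). Those genes, named after their values were seen, were Dscam, the GABA synthesis genes Gad1 and Gad2, the vesicular GABA transporter gene Slc32a1, the transcription factor genes Gata3 and Tal1, the presynaptic adhesion gene Nrxn3, the channel subunit gene Asic4 and the noncoding Lhx1os. The measure is one of order only. The size of the Dscam gap was not compared with that of the GABA genes.

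Within the inhibitory class IN1 held the lowest Dscam level at E19, P4 and P8, at 1799, 1607 and 1894 CPM, and IN10 at P21, at 1558 CPM. The highest subtype was IN7 at E19 (4212 CPM), IN9 at P4 and P8 (3663 and 2943 CPM) and IN12 at P21 (2294 CPM). Within the excitatory class EN5 was lowest in all 4 libraries, at 136, 300.1, 122 and 237 CPM, and EN8, EN1 and EN11 were among the highest. Leptomeningeal cells held 59.9 to 83.3 CPM, with intervals that overlapped that of EN5 at E19 and P8. In the order of all neuron subtypes most neighbours could not be told apart: the intervals of adjacent subtypes overlapped in 19 and 17 of 24 pairs at E19 and P4 and in 15 and 16 of 22 pairs at P8 and P21. The order as a whole was kept, with a Pearson correlation of 0.94 to 0.99 between libraries over 23 or 25 subtypes, which share their names and the authors' clustering.

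**Figure D2:**
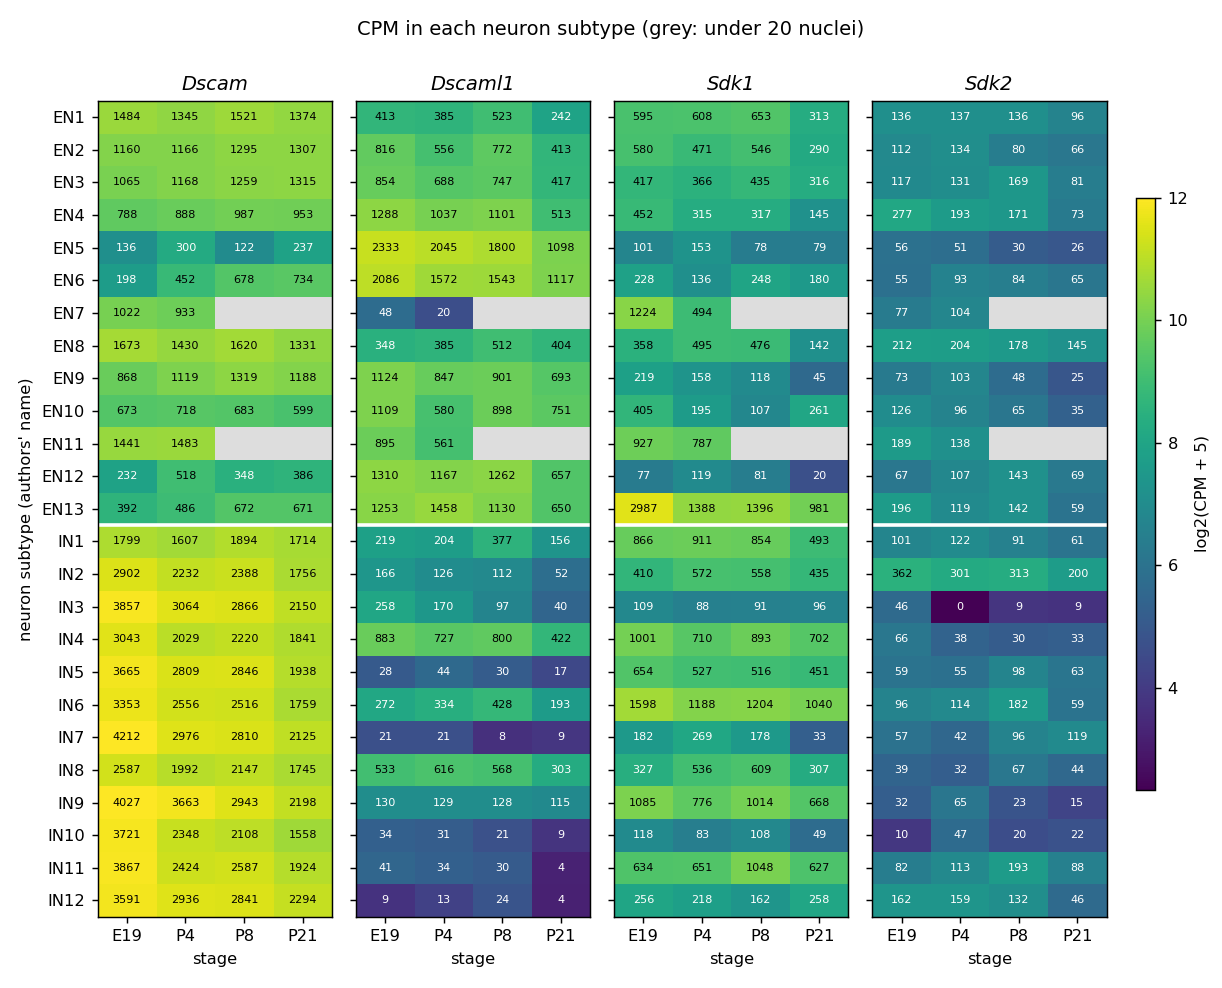
CPM of the 4 genes (columns of panels) in each neuron subtype (rows) and library (x axis), with colour giving log2 of CPM plus 5 and grey marking groups under 20 nuclei. The Dscam panel changes at the line between excitatory (EN) and inhibitory (IN) subtypes, Dscaml1 is high in EN5 and EN6 and near 0 in IN7 and IN12, Sdk1 is high in EN13 and IN6, and Sdk2 in IN2.

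Dscaml1 showed the opposite class pattern. Its level in excitatory neurons was 716, 516, 984 and 542 CPM from E19 to P21, against 239.7, 219, 204 and 115 CPM in inhibitory neurons. No inhibitory value reached an excitatory one. The excitatory level was 2.99-fold the inhibitory one at E19 (interval 2.82 to 3.16) and 2.35-fold at P4 (2.22 to 2.49). The ratio was larger in the later libraries, 4.82-fold (4.61 to 5.04) at P8 and 4.72-fold (4.45 to 5.01) at P21. With subtypes weighted alike the libraries were closer, at log2 ratios of inhibitory over excitatory of -2.28, -2.06, -2.19 and -2.46 from E19 to P21, against -1.56, -1.22, -2.24 and -2.19 here. Dscaml1 passed 2-fold in each library, as 1.07%, 0.984%, 1.93% and 1.69% of genes did on the excitatory side, and 0.512% of genes did so in all 4. Among genes of at least 200 kb the shares were 3.16%, 3.34%, 5.1% and 4.53%. At P4 the log2 ratio was -0.95, short of 2-fold, with neurons classed by their own transmitter UMIs. Thinned shares of nuclei with a UMI were 53.6 to 80.4% in excitatory and 19.1 to 29.4% in inhibitory neurons, against 0 to 4.29% in leptomeningeal cells.

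Unlike Dscam, Dscaml1 did not separate the 2 classes subtype by subtype, because some inhibitory subtypes lay above some excitatory ones in each library. At E19 and P4 the excitatory class also held a low member, EN7. At P8 and P21, where EN7 had under 20 nuclei, the lowest excitatory levels were 512 and 242 CPM. EN5 was highest at E19, P4 and P8, with 2333, 2045 and 1800.0 CPM, and had a UMI in every one of its nuclei. At P21 EN6 (1117 CPM) and EN5 (1098 CPM) stood together at the top with overlapping intervals. At the other end IN12 held 8.53, 13.2, 23.8 and 4.16 CPM from 1, 2, 9 and 1 UMIs, and IN7 held 7.72 CPM at P8 and 9.37 at P21. Their intervals overlapped those of leptomeningeal cells, at 6.09 to 14.5 CPM. IN4 and IN8 were the exceptions among inhibitory subtypes, with 422 to 883 CPM and 303 to 616 CPM, and EN7 among excitatory ones, with 48.2 CPM at E19 and 20.2 at P4. As a result 8, 6, 7 and 7 excitatory subtypes lay above every inhibitory one from E19 to P21. The spread of Dscaml1 over neuron subtypes was wide: the standard deviation of its log2 level was 2.09 to 2.31, above that of 99.9% of genes in each library, while those of the other 3 members lay above 91.9 to 99.0% of genes. The order of subtypes was kept between libraries, with Pearson correlations of 0.96 to 0.98.

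Over neuron subtypes, high Dscam went with low Dscaml1. Spearman's rho between the 2 levels was -0.86, -0.76, -0.86 and -0.86 from E19 to P21, over 25, 25, 23 and 23 subtypes, and Pearson's r was -0.74, -0.70, -0.70 and -0.69. The relation was not only the difference between classes. Over the 13 or 11 excitatory subtypes rho was -0.87, -0.79, -0.89 and -0.81, and over the 12 inhibitory subtypes it was weaker, at -0.55, -0.46, -0.30 and -0.37. Pearson's r was -0.59, -0.49, -0.83 and -0.74 in excitatory and -0.51, -0.46, -0.52 and -0.32 in inhibitory subtypes. At E19 the Dscaml1 levels of IN5, IN7, IN10, IN11 and IN12 rested on 1 to 10 UMIs. The points of a panel share 1 library and 1 clustering, and no p-value was computed. EN5 shows the pattern from one side, with 2333 CPM of Dscaml1 and 136 of Dscam at E19, and IN12 from the other, with 8.53 and 3591 CPM. EN7 was an exception, low in Dscaml1 at a Dscam level of 1022 CPM at E19. The 2 genes were nevertheless present together in many groups, such as IN4 with 3043 CPM of Dscam and 883 of Dscaml1 at E19.

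**Figure D3:**
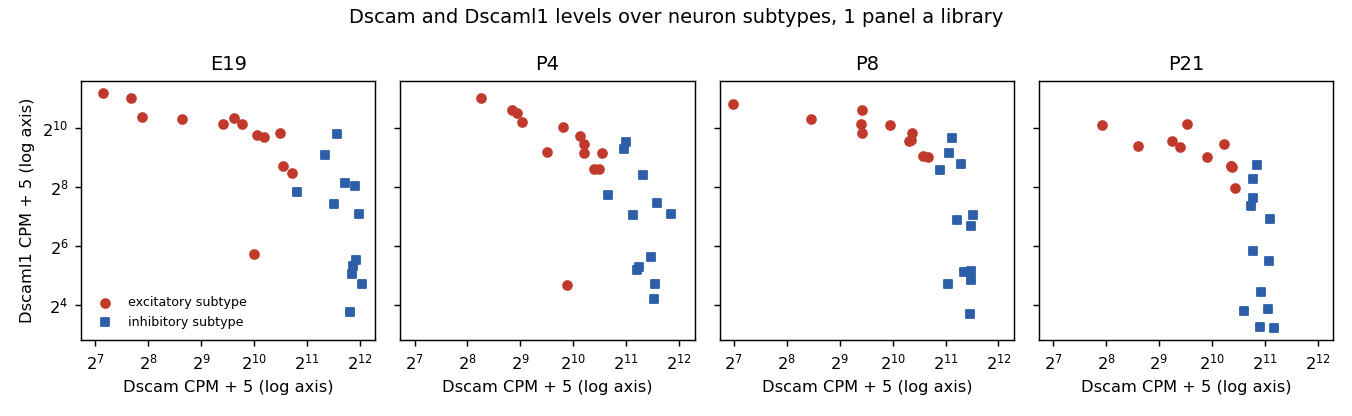
Dscaml1 against Dscam level in each neuron subtype with at least 20 nuclei, 1 panel a library, both axes CPM plus 5 on a log scale. Inhibitory subtypes (squares) lie to the right of all excitatory subtypes (circles) in each panel, and Dscaml1 is lower where Dscam is higher, with EN7 the low circle at E19 and P4.

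Sdk1 was somewhat higher in inhibitory than in excitatory neurons, and the classes differed less than for the DSCAM genes. Excitatory levels were 590.4, 492, 416 and 235 CPM and inhibitory levels 680.2, 680.4, 552 and 406 CPM from E19 to P21. The inhibitory level was 1.15-fold the excitatory one at E19 (1.108 to 1.198) and 1.38-fold at P4 (1.33 to 1.44), then 1.33-fold (1.28 to 1.38) and 1.73-fold (1.65 to 1.80), so it passed 2-fold in 0 of 4 libraries. The E19 difference turned to a log2 ratio of -0.13 with subtypes weighted alike. The difference between subtypes of a class was far larger. EN13 was highest at E19, P4 and P8, with 2987, 1388 and 1396 CPM, and still held 981 CPM at P21, when IN6 was highest with 1040.4 CPM. EN12, IN10 and EN5 were the lowest, between 77.4 and 83.5 CPM at E19, P4 and P8, and EN12 held 20.4 CPM at P21. EN13 is therefore a subtype with high Sdk1 beside high Dscaml1. IN6 combined high Sdk1 with the Dscam level common to inhibitory subtypes, at rank 8, 6, 7 and 8 for Dscam from E19 to P21. Its Dscaml1 was 272, 334, 428 and 193 CPM.

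Sdk2, the least counted member, did not differ between the neuron classes beyond counting error. Its level was 137, 131, 121 and 77.1 CPM in excitatory and 131, 125, 118 and 71.4 CPM in inhibitory neurons. The inhibitory level over the excitatory was 0.960 at E19 (interval 0.880 to 1.05) and 0.958 at P4 (0.881 to 1.04), then 0.975 (0.905 to 1.05) and 0.926 (0.845 to 1.01). These intervals allow an excitatory level up to 1.18-fold the inhibitory one. With subtypes weighted alike the log2 ratio was -0.47 at E19 and -0.43 at P4. Within that even class level 1 subtype stood apart. IN2 was highest in all 4 libraries, with 362, 300.9, 313 and 200.4 CPM, where the median inhibitory subtype held 62.5, 59.8, 93.4 and 52.2 CPM. EN4 at E19 (277 CPM) and EN8 (212, 204, 178 and 145 CPM) were the highest excitatory subtypes. IN10 was lowest at E19, with 9.84 CPM from 2 UMIs, and IN3 in the other 3 libraries, with 0 UMIs at P4, where 3 UMIs would be 9.47 CPM and the interval reaches 11.6 CPM, and 9.06 and 8.53 CPM later. The order of subtypes was kept less closely than for the other members, with Pearson correlations of 0.64 to 0.90 between libraries.

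Sdk1 exceeded Sdk2 in UMIs in both neuron classes, but the gene bodies differ in length. The log2 ratio of Sdk2 to Sdk1 UMIs was -2.11, -1.91, -1.78 and -1.61 in excitatory neurons and -2.37, -2.44, -2.23 and -2.51 in inhibitory neurons from E19 to P21. Per gene body the same ratio was -0.37, -0.17, -0.04 and 0.14 in excitatory and -0.63, -0.70, -0.48 and -0.76 in inhibitory neurons. In excitatory neurons each later library had a higher share of Sdk2, and in inhibitory neurons the P21 library had the lowest. By length the 2 sidekicks were thus near parity in excitatory neurons at P8, with 42.7 CPM of Sdk1 and 41.6 of Sdk2 per 100 kb.

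All 4 members were lower at P21 than at E19 in both neuron classes, by unequal amounts. Of genes of at least 200 kb at 20 CPM or more, 382 of 870 were lower in excitatory and 382 of 858 in inhibitory neurons. Their median log2 ratio was 0.10 in each class, against -0.06 and -0.04 for all genes. The log2 ratio of P21 over E19 in excitatory neurons was -0.24 for Dscam, -0.40 for Dscaml1, -1.31 for Sdk1 and -0.79 for Sdk2. In inhibitory neurons it was -0.51, -1.03, -0.74 and -0.83. Sdk1 passed 2-fold in excitatory neurons, as 10.7% of genes did in that direction, and Dscaml1 in inhibitory neurons, as 11.3% did. Among genes of at least 200 kb the shares were 6.09% and 6.53%. A count of 1 member in each class is too small to be set apart from either share. The Dscaml1 ratio stayed past 2-fold under 2 of 7 alternatives (-1.11 to -0.89). No member was past 2-fold higher, as 5.35% and 5.83% of genes were in the 2 classes and 10% and 10.6% of those of at least 200 kb. The Sdk1 level in excitatory neurons was 0.398 of its E19 value (0.382 to 0.415), and its P21 level was 0.565 (0.541 to 0.590) of that at P8. That drop was greater than in either earlier step, but the step from day 8 to day 21 was also the longest, so it does not show a faster fall. Between the P8 and P21 libraries Sdk2 in excitatory neurons was 0.637 (0.590 to 0.688) of its P8 level, and Dscaml1 in inhibitory neurons 0.562 (0.524 to 0.602).

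Within subtypes Dscam changed in different ways in the 2 classes. From E19 to P21 it was lower in 12 of 12 inhibitory subtypes, 11 of them with an interval below 1, with a median log2 ratio of -0.86. All 12 were lower in 12.6% of genes. In excitatory subtypes it was higher in 8 of 11, each with an interval above 1, and lower in EN1, EN8 and EN10, with a median of 0.30. The largest ratio was in EN6, with 198, 452, 678 and 734 CPM from E19 to P21, or 3.70-fold (2.70 to 5.23), and the lowest subtype, EN5, went from 136 to 237 CPM. The lowest inhibitory ratio was in IN10, from 3721 to 1558 CPM, and the least was in IN1, at 0.953 (0.907 to 1.00) of its E19 level. The class level in excitatory neurons was lower at P21 even so, and turned to a log2 ratio of 0.22 when each subtype was weighted alike, so its direction depends on how subtypes are weighted. EN1, among the highest in Dscam, made up 514 of 1338 excitatory nuclei at E19 and 138 of 682 at P21.

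The other members were mostly lower within subtypes too. Dscaml1 was lower at P21 than at E19 in 10 of 11 excitatory subtypes (median log2 ratio -0.94), each with an interval below 1. It was lower in 12 of 12 inhibitory subtypes (-0.83), 7 of them with an interval below 1, and 12.6% of genes were lower in all 12. Its class level in excitatory neurons was 1.91-fold higher at P8 than at P4 (1.85 to 1.96), but over the 11 subtypes the median log2 ratio of that step was 0.11 and it was 0.06 with subtypes weighted alike. EN7, at 20.2 CPM, made up 191 of 1206 excitatory nuclei at P4 and 1 of 867 at P8. Sdk1 was lower in 11 of 11 excitatory subtypes (median -0.99), as 15.3% of genes were, and in 10 of 12 inhibitory subtypes (-0.52). The interval lay below 1 in 9 of these excitatory and 7 of these inhibitory subtypes. EN9 had the lowest excitatory ratio, at 0.204 (0.130 to 0.320), and EN13 went from 2987 to 981 CPM. Sdk2 was lower in 9 of 11 excitatory (-0.72) and 7 of 12 inhibitory subtypes (-0.67), with an interval below 1 in 9 and 5 of them. IN7 was the 1 inhibitory subtype with an interval above 1 for Sdk2, with 57.2 CPM at E19 and 119 at P21, a ratio of 2.09 (1.12 to 4.31).

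**Figure D4:**
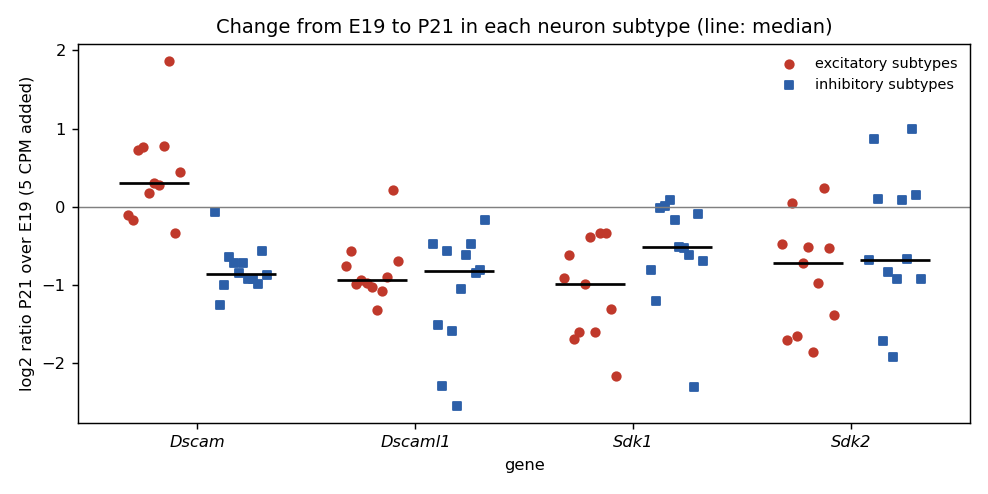
Log2 ratio of P21 over E19, with 5 CPM added, for each gene (x axis) in each neuron subtype with at least 20 nuclei in both libraries; the line is the median. For Dscam the 12 inhibitory subtypes lie below 0 and 8 of 11 excitatory subtypes above it, and for the other genes most subtypes of both classes lie below 0.

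Outside neurons the clearest pattern was in the oligodendrocyte lineage, whose precursors (OPCs) divide and mature through committed cells to myelinating oligodendrocytes. OPCs held Dscam at 2739, 2907, 3417 and 4227 CPM from E19 to P21, and every OPC had a Dscam UMI, thinned or not. Dscaml1 in OPCs was 1002, 1480.0, 1403 and 2170.4 CPM, so OPCs carried both DSCAM genes together at levels that no neuron subtype combined. The margin was small at E19, where IN4 held more Dscam (3043 CPM) and 883 CPM of Dscaml1 (787 to 988), and the OPC level of Dscaml1 rested on 191 UMIs. From E19 to P21 the OPC level was 1.54-fold higher for Dscam (1.39 to 1.71), 2.17-fold for Dscaml1 (1.84 to 2.56) and 1.82-fold for Sdk1 (1.37 to 2.43), whereas the class levels in neurons were lower. Dscaml1 passed 2-fold, as 11.4% of genes did, and no member was past 2-fold lower, as 17.8% of genes were. Genes of at least 200 kb were also higher in OPCs at P21, by a median log2 ratio of 0.21 against -0.06 for all genes. The summed level of the neuron markers in OPCs was 1333 CPM at E19 and 2271 at P21, and that of the oligodendrocyte markers 226 and 2177 CPM. The part of these in the OPC result was not tested.

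The members parted in maturing cells. At P8 committed oligodendrocytes held 3364 CPM of Dscam, at 0.985 (0.901 to 1.08) of the OPC level, and 2346 CPM of Dscaml1, 1.67-fold that of OPCs (1.49 to 1.88). At P21 the committed cells held 1762 and 926 CPM, and all 4 members were past 2-fold below OPCs of that library, as 24.5% of genes were, with 0 past 2-fold above (13.5% of genes). Of genes of at least 200 kb 51.4% were past 2-fold lower, with a median log2 ratio of -1.11, so Dscam (-1.26) and Dscaml1 (-1.22) lay near the typical long gene. In myelinating oligodendrocytes at P21 Dscam was 182 CPM, 23.2-fold below OPCs (20.4 to 26.4), and Sdk1 was 37.0 CPM, 17.5-fold below (13.0 to 23.9). Dscaml1 was still 1002 CPM there, 2.17-fold below OPCs (1.97 to 2.37) and 1.08-fold committed cells (0.974 to 1.204). Sdk2 was low throughout, at 10.8 CPM from 17 UMIs against 36.7 from 11 in OPCs, 3.39-fold below (1.43 to 7.66), with an interval that reaches under 2-fold. The same holds in committed cells, where 4 UMIs gave 4.46-fold below OPCs (1.32 to 19.2). All 4 members were past 2-fold lower in myelinating cells, as 24.9% of all genes were (15% were past 2-fold higher), and 54.1% of the genes of at least 200 kb, whose median log2 ratio was -1.24. Dscaml1, at -1.11, thus lay near the typical long gene, and Dscam, at -4.50, and Sdk1, at -3.96, lay well below it. The myelin marker genes were at a summed 2177 CPM in OPCs, 21723 in committed and 27731 in myelinating cells at P21, and the OPC markers at 2588, 556 and 174 CPM.

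**Figure D5:**
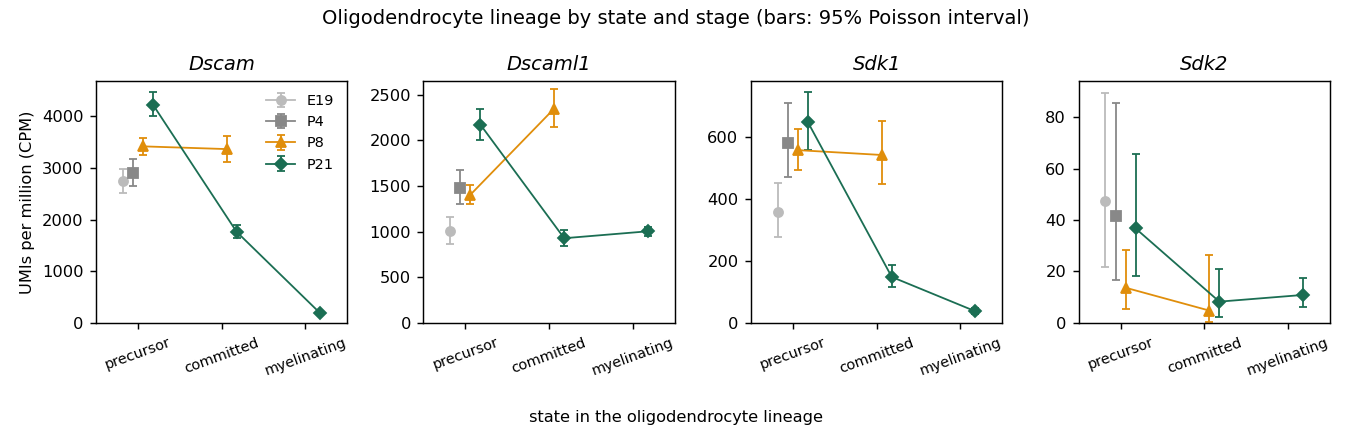
Levels of the 4 genes (CPM, y axis) in 3 states of the oligodendrocyte lineage (x axis), coloured by library, with 95% Poisson intervals; states under 20 nuclei are left out. Dscam at P21 goes from 4227 to 1762 to 182 CPM, while Dscaml1 stays at 926 and 1002 CPM in committed and myelinating cells.

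In astrocytes Sdk1 was far lower in the last library and Sdk2 was not. Sdk1 was 407, 370.4, 232 and 46.1 CPM from E19 to P21, so that the E19 level was 8.82-fold the P21 level (6.87 to 11.5). Sdk2 was 108, 94.1, 81.4 and 108 CPM, with a ratio of 1.00 (0.780 to 1.30) between the first and last library. The log2 ratio of Sdk2 to Sdk1 UMIs accordingly went from -1.91 (-2.25 to -1.59) at E19 to 1.23 (0.83 to 1.64) at P21, the 1 class and library of at least 20 nuclei in which Sdk2 gave more UMIs than Sdk1. Dscaml1 was also low at P21, at 19.1 CPM against 114 at E19. Sdk1 and Dscaml1 were both past 2-fold lower, as 18.2% of genes were in this class, and 8.6% were past 2-fold higher. The summed level of the astrocyte markers in the class was 3608 CPM at E19 and 11204 at P21. That of the OPC markers was 322 and 71.3 CPM, that of the dividing-cell markers 64.8 and 0.615 CPM and that of the oligodendrocyte markers 52.9 and 779 CPM, and their part in the Sdk1 and Dscaml1 values was not tested. Protoplasmic astrocytes had the lower level of Sdk1: at P21 they held 27.2 CPM, against 163 in fibrous astrocytes, a ratio of 6.01 (3.72 to 9.71). Dscam in astrocytes was between 94.1 and 159.6 CPM, above the 59.9 to 83.3 CPM of leptomeningeal cells, with intervals that overlapped at E19 only.

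Leptomeningeal cells held the highest class level of Sdk1. It was 2869, 2286, 2472 and 2701 CPM from E19 to P21, from 631 to 2478 UMIs, and 79.5 to 94.4% of their nuclei had a UMI after thinning. The level at P21 was 0.941 of that at E19 (0.862 to 1.03), so a lower level at P21, as in neurons and astrocytes, was not detectable there. Their Dscam and Dscaml1 were near the lowest measured, and Sdk2 was 141, 62.9, 58.2 and 41.4 CPM from 28 to 38 UMIs a library. Sdk2 was past 2-fold lower at P21 than at E19, as 18% of genes were in this class (8.48% were higher). Between the same libraries the summed level of the astrocyte markers in the class was 3906 and 1897 CPM and that of the neuron markers 3264 and 1488 CPM, and their part in the Sdk2 values was not tested. The class labelled epithelial also held much Sdk1, at 1339 CPM at P8 and 1983 at P21, the libraries in which it had at least 20 nuclei. The summed level of the leptomeningeal markers Col1a1, Col1a2, Dcn, Lum and Slc6a13 in it was 648 and 673 CPM in those libraries, against 2942 and 1978 CPM in leptomeningeal cells, and their part in that result was not tested.

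The smaller classes need more care, because single nuclei weigh heavily. Microglia at P8 held Sdk1 at 1264 CPM from 96 UMIs in 21 nuclei, of which 29 UMIs were in 1 nucleus, against 317 CPM at P4 and 333 at P21. In dividing cells Dscam was 858, 1878 and 2574 CPM at E19, P4 and P8 and Sdk1 was 1089, 1077 and 1116 CPM. The summed level of OPC markers in it was 853, 808 and 1537 CPM and that of astrocyte markers 2923, 1916 and 1294 CPM, and their part in the Dscam values was not tested. Endothelial cells reached 20 nuclei at P4 only, with 30.6 CPM of Dscam and 157 of Sdk1.

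For each member the 3 genes with the most similar pattern were sought over 96 neuron subtype profiles, each library centred on its mean, among 11431 genes. Dscam was most like Nrxn3 (Pearson 0.84), which encodes a presynaptic neurexin, the calcium channel subunit gene Cacna2d2 (0.80) and the transcription factor gene Lhx5 (0.76). Dscaml1 was most like Lmo3 (0.87), which encodes a transcriptional cofactor, the transcription factor gene Lhx2 (0.75) and the calcium channel subunit gene Cacna2d1 (0.77). Sdk1 was less closely followed by any gene, with 0.67 for Adgrl3, a latrophilin, 0.67 for Anks1b and 0.62 for the semaphorin receptor gene Plxna2, and Sdk2 with 0.68 for the sodium channel gene Scn9a, 0.65 for Arhgap18 and 0.62 for Map6. Lhx2, which was close to Dscaml1, was among the genes most opposite to Dscam (-0.77), and Nrxn3, which was close to Dscam, among those most opposite to Dscaml1 (-0.72). The profiles share libraries, depth and clustering, so these values order genes and carry no p-value.

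Genes of the surrounding pathways were taken from a list of 43 ligands, receptors, cytoplasmic partners and other genes of lamination and self-avoidance, of which 38 reached 20 CPM in a neuron class. From E19 to P21, 3 of the 38 were past 2-fold lower and 0 higher in excitatory neurons, with a median log2 ratio of -0.21, and 5 lower and 0 higher in inhibitory neurons, with a median of -0.27. Over all genes 10.7% and 11.3% were past 2-fold lower and 5.35% and 5.83% higher, so the counts past 2-fold lower in the list lie near the background. By direction alone 28 and 25 of the 38 were lower. The list medians lay below those of all genes (-0.06 and -0.04) and of genes of at least 200 kb (0.10 in each class). The lowest ratios were those of Igsf9, an immunoglobulin superfamily gene of dendrite growth, at -2.86 in excitatory and -2.85 in inhibitory neurons, and of the plexin genes Plxna3 (-1.41 and -1.62) and Plxna1 (-1.31 in excitatory neurons). Megf11, which spaces the cells of some retinal mosaics, was at -1.93 in inhibitory neurons. The highest ratios were small, with Cntn2 at 0.57, Magi3 at 0.49 and Cntn6 at 0.47 in excitatory neurons, and Cntn6 at 0.72, Cntn2 at 0.66 and Cntn4 at 0.66 in inhibitory neurons. Among the MAGI scaffolds of the sidekicks, Magi2 gave the most UMIs, with 2285 to 2864 CPM in excitatory and 2161 to 3508 in inhibitory neurons. These values were not scaled to gene body, so they do not order the MAGI genes by expression.

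Class differences as large as those of the 2 DSCAM genes, which run in opposite directions, were rare in the list. By direction alone the list leaned to the excitatory side, that of Dscaml1. Of the 38 genes 13 were higher in excitatory and 5 in inhibitory neurons in all 4 libraries, where 16.5% and 32.6% of all genes were. Genes of at least 200 kb also leaned to the excitatory side. Of these, 494 of 855, 496 of 868, 456 of 862 and 463 of 860 were lower in inhibitory neurons from E19 to P21. The part of gene length in the lean of the list was not tested. Past 2-fold in the list were 0 genes on either side at E19, 1 on each side at P4 and P8, and 1 on the excitatory side at P21. On the excitatory side this was Megf11, with log2 ratios of inhibitory over excitatory of -0.79, -1.52, -2.63 and -2.46 from E19 to P21. On the inhibitory side it was Sema5b, a semaphorin gene, with 0.87, 1.11, 1.53 and 0.85. Others that kept their side in all 4 libraries included Nectin3 (-0.63 to -0.98) and Robo1 (-0.19 to -0.86) on the excitatory side. On the inhibitory side they included Sema5a (0.36 to 0.94) and Robo2 (0.33 to 0.41). Igsf9 was above Robo2 at P4 and P8 (0.42 and 0.68) but under 20 CPM in both classes at P21. Dcc, the netrin receptor gene that stands beside Dscam, was higher in excitatory neurons, with 1527 to 1666 CPM against 1123 to 1453 CPM, the side opposite to Dscam.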

How the data were processed

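The deposited matrix held UMI counts per gene and nucleus, which the authors had not normalised, for 4 libraries. Per the submitters' processing notes, reads were processed with Cell Ranger 3.0.2 and mm10, and per the labels against a pre-mRNA reference. Stage, class and subtype came from the authors' table of nuclei, of which 7 columns were not used. That deposited table also gives 2 percent values, the percent of mitochondrial and of ribosomal protein UMIs, which entered no result. How the authors filtered nuclei, treated doublets and clustered is not given in the sources used here. Here counts were summed by stage and class or subtype and divided by the group's total (CPM). Levels have exact Poisson intervals, shares of nuclei exact Clopper-Pearson intervals and ratios intervals from the split of the 2 counts, at 95%. Log2 ratios add 5 CPM, and a ratio is called past 2-fold among genes at 20 CPM or more. Groups under 20 nuclei were left out of subtype orders. No test was run, with 1 library a stage and classes named from the same expression data. The summed level of the inhibitory neuron markers is not reported here. The members and lists were chosen with earlier results of these data known. Gene bodies came from GENCODE M21. Named genes are the members, the 3 genes most correlated with each over neuron subtype profiles, and from the pathway list the 3 largest stage changes and class differences to each side. Python 3.11.15, numpy 2.4.6, scipy 1.17.1 and pandas 2.3.3 were used, and fold calls were checked on simulated data. Alternatives were other scalings, weightings and thresholds, thinning, and neurons classed by their own transmitter UMIs.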

Additional observations from a re-analysis of the deposited data

Results flagged for a closer look

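From P4 to P8 the 2 neuron classes moved in opposite directions for 2 members, beyond counting error in each class; the difference was not tested, since each stage was 1 library. Dscam was 0.924 (0.904 to 0.946) of its P4 level in excitatory and 1.18 (1.156 to 1.204) in inhibitory neurons, a difference in log2 ratio of 0.35. Dscaml1 was 1.91 (1.85 to 1.96) in excitatory and 0.931 (0.870 to 0.996) in inhibitory neurons, a difference of -1.03. With subtypes weighted alike these steps were 0.13 and -0.02 for Dscam and 0.06 and 0.10 for Dscaml1, in excitatory and inhibitory neurons on the log2 scale.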

How the results depend on the processing

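No direction of a ratio past 2-fold was reversed under any alternative run. No paired test was run. Between stages none was possible, as each stage is 1 library. The neuron classes could be paired by library, but they were named from the same expression data. Leaving out a replicate could not be run with 1 library a stage. Sdk1 stayed past 2-fold lower at P21 in excitatory neurons under all 8 alternatives (-1.40 to -1.19). Dscaml1 in inhibitory neurons lay at the threshold (-1.03): the number of members past 2-fold lower was 1, and 0 with median-of-ratios scaling, nuclei weighted alike, subtypes weighted alike, thinning or a pseudocount of 20 CPM. The number of members past 2-fold between classes in all 4 libraries was 1, 2 with subtypes weighted alike, where Dscam joined, and 0 with neurons classed by transmitter UMIs, where Dscaml1 at P4 was -0.95; 667 of 7552 neurons were then left out as tied and 320 changed class. Dscam was higher in inhibitory and Dscaml1 in excitatory neurons in 4 of 4 libraries under every alternative. Without an expression floor 4.81% in place of 10.7% of genes were past 2-fold lower in excitatory neurons. With at least 50 nuclei a subtype, the subtype highest in a library was the same in 9 of 16 cases, all those in which it still had enough nuclei. With subtypes weighted alike several ratios under 2-fold changed sign, among them Dscam in excitatory neurons from E19 to P21 (-0.24 to 0.22) and Sdk1 between classes at E19 (0.20 to -0.13). Median-of-ratios scaling added 0.12 and 0.11 to log2 ratios of P21 over E19 in excitatory and inhibitory neurons. Depth limits Sdk2 and Dscaml1 in small groups, where a level rests on few UMIs.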
